A study of Mus musculus with 18 samples.

Results

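Stromal cells hold stem cells in place and feed them with secreted and membrane-bound factors, and 8 such factors were followed here as transcripts in cultures of murine embryonic stem (ES) cells and the PA6 stromal line: KITL, PTN, MDK, VCAM1, CSF1, GAS6, HGF and THY1. They were chosen by name, with earlier results of these data known. All probes carrying these names were taken, which gave 20 probes for 8 of the 30854 gene names on the array. Of the 8 genes, 7 had a probe that passed the filter on dim probes (detected at p under 0.05 by 3 or more of the 18 arrays), and KITL had none.

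Total RNA was hybridized to Illumina mouse whole-genome bead arrays, which give 1 fluorescence intensity per probe. The 18 arrays form 6 groups of 3 replicates, all from wells kept for 3 days in medium without serum. ES cells were either seeded on a PA6 monolayer (ES/PA6 co-cultures) or PA6 cells were grown by themselves (PA6 mono-cultures), and each culture type received no growth factor (-GFs), FGF2 at 20 ng/ml or BMP4 at 10 ng/ml. These doses are those of the labels, and the study's methods name a lower one for BMP4. The study used these arrays to ask which signals, from the ES cells or from the stroma, accompany endothelial differentiation under FGF2 and BMP4. Both components are cell lines, so the replicates are separate wells of the same lines. The labels describe each replicate as a set of wells, 1 per condition, and the tests below did not pair arrays by replicate number unless a block is named. A co-culture array measures ES-derived cells and PA6 cells together: fewer cells of a type and less RNA per cell cannot be told apart in it.

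The niche factors fall into 3 classes. PTN (pleiotrophin) and MDK (midkine) are the only members of a family of small secreted heparin-binding cytokines and share receptors such as PTPRZ1, ALK, syndecans, LRP1 and nucleolin. KITL (stem cell factor), CSF1 (macrophage colony-stimulating factor), GAS6 and HGF (hepatocyte growth factor) are ligands of receptor tyrosine kinases: KIT, CSF1R, the TYRO3, AXL and MERTK family, and MET. VCAM1 is an adhesion molecule that binds the α4 integrins of haematopoietic cells, and THY1 (CD90) is a GPI-anchored surface glycoprotein by which mesenchymal stromal cells are recognised. Bone marrow stroma is known as a source of several of them, with KITL as the factor on which haematopoietic stem cells depend.

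The culture labels were checked against marker genes. All 12 fibroblast markers examined, collagens, decorin, lumican and the PDGF receptors among them, were detected on every PA6 array, and the 7 pluripotency genes tested were detected on every co-culture array and were higher there than in PA6 cells (log2 differences of 4.97 to 8.87 without growth factors). Of the haematopoietic markers, PTPRC, ITGAM, EMR1 and SPI1 did not pass the filter. CD68, a lysosomal glycoprotein of macrophages, was detected on all 3 co-culture arrays without growth factors and on none of the PA6 arrays there, and was at least 4.81-fold higher. CD34 was detected on all arrays of both groups and was lower in the co-cultures by a log2 difference of -3.25. The part of other cell types in the results below was not tested. Arrays of the same group correlated at 0.981 to 0.992 over the 16446 tested genes, with 1 probe per gene. A co-culture array correlated with a mono-culture array at 0.799 to 0.865. All values below are log2 normalized intensities of the probe with the largest mean for its gene, ± is the standard error of the fit, and a gene was called when its adjusted p was under 0.1 and its log2 fold change was over 1 in either direction. Levels of different genes are not comparable on this scale, because each probe has its own response.

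Co-cultures and mono-cultures differed most in MDK, which went the opposite way to its relative PTN and to the other niche factors. In -GFs medium 6 of the 7 tested factors were called, against 39.0% of all genes (19.4% higher and 19.5% lower): MDK was higher in the ES/PA6 co-cultures, and PTN, VCAM1, CSF1, GAS6 and HGF were lower. THY1 was the exception, with nearly the same level in both culture types. The median difference of the 7 factors was -1.54 on the log2 scale, and that of all genes was -0.11.

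MDK read 14.44, 14.63 and 14.69 in the co-cultures without growth factors and 6.98, 6.40 and 6.14 in the mono-cultures. The mono-culture values lay at the detection limit, with 2 of the 3 arrays detected, 1 of 3 under FGF2 and 1 of 3 under BMP4. The fitted difference was 8.08 ± 0.209 on the log2 scale, and it was 7.96 under FGF2 and 8.22 under BMP4 (limma, adjusted p of 1.97e-14, 2.63e-14 and 1.41e-14). Its size depended on the treatment of background and on the choice of probes. Without background correction it was 7.03, 6.73 and 6.92 in the same order of media. With background correction and the mean of all kept probes it was 5.20, 4.73 and 5.14. The other bright MDK probes, ILMN_1254450 and ILMN_3080012, were detected on no -GFs PA6 array. The first was higher in the co-cultures by at least 102-fold and the second by at least 10.4-fold. The remaining kept probe, ILMN_3079236, was dim, with detection on 1 of the 3 co-culture arrays.

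PTN read 13.30, 14.20 and 13.88 in the co-cultures without growth factors and 14.94, 15.37 and 15.71 in the mono-cultures. The groups did not overlap, and PTN was 2.91-fold lower in the co-cultures (-1.54 ± 0.411, adjusted p = 0.00341). The difference was -2.47 under FGF2 and -1.38 under BMP4. PTN was thus strongly detected in both culture types, whereas MDK was close to background wherever ES cells were absent.

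The ligands of receptor tyrosine kinases other than KITL were all lower in the co-cultures. CSF1, which drives the survival of macrophages and their precursors, read 9.24, 9.57 and 9.13 in the co-cultures and 11.77, 11.49 and 11.74 in the mono-cultures without growth factors (-2.35 ± 0.209, adjusted p = 5.55e-08). GAS6, a vitamin K-dependent ligand of the TYRO3, AXL and MERTK receptors, read 13.86, 14.08 and 13.54 against 15.90, 16.02 and 15.99 (-2.15 ± 0.158, adjusted p = 5.77e-09). The PA6 intensities of GAS6 lay near the highest value of the table, so its difference may be understated. HGF, which signals through MET, read 11.15, 11.45 and 10.21 against 11.88, 12.00 and 12.31 (-1.13 ± 0.314, adjusted p = 0.00469).

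For HGF the third co-culture replicate was the lowest of the 9 co-culture arrays, and without it the difference without growth factors was -0.76, below the fold change threshold. The mean of all kept HGF probes gave -0.94. Among the separate probes, ILMN_2729117 gave -0.34 without growth factors, with groups that overlapped, and ILMN_2580097 gave -1.35. Under FGF2 and BMP4 the HGF difference was larger, at -2.63 and -1.61. CSF1 changed in the other direction: its deficit in the co-cultures was -2.00 under BMP4 and -0.95 under FGF2, where it stopped short of the fold change threshold at an adjusted p of 0.000809. That value crossed the threshold with median scaling (-1.01) and without co-culture FGF2 replicate 1 (-1.02) or 2 (-1.11).

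Of the surface molecules, VCAM1 read 11.89, 12.17 and 11.57 in the co-cultures and 13.99, 13.98 and 14.13 in the mono-cultures, a 4.45-fold difference (-2.15 ± 0.173, adjusted p = 1.70e-08). THY1 read 12.74, 13.48 and 13.15 in the co-cultures and 13.39, 13.34 and 13.15 in the mono-cultures, and the groups overlapped. The THY1 difference was -0.18 (95% confidence interval -0.71 to 0.35) without growth factors, -0.14 (-0.67 to 0.39) under FGF2 and -0.35 (-0.88 to 0.18) under BMP4, and it was called in none of the 3 media. Unadjusted p was not under 0.05 for THY1 in any of them.

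**Figure D1:**
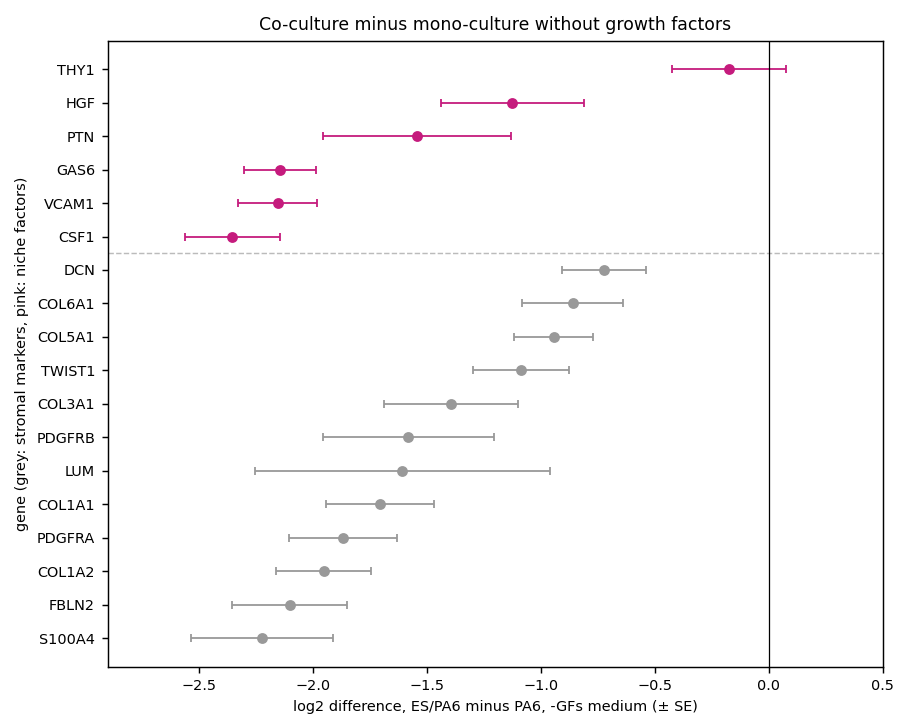
Log2 difference, ES/PA6 co-cultures minus PA6 mono-cultures, in -GFs medium (x axis, points with standard errors, 3 arrays per group) for 6 niche factors, in pink, and 12 fibroblast marker genes, in grey. MDK, at 8.08, is off the scale and not drawn. CSF1, VCAM1 and GAS6 lie among the largest deficits, between -2.35 and -2.15, with the PA6 values of GAS6 near the top of the intensity range, while THY1, at -0.18, lies nearer to 0 than any of the fibroblast markers.

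The fibroblast markers moved with the culture type as well. In -GFs medium 9 of the 12 were called lower in the co-cultures and 3 did not pass, against 19.5% of all genes called lower. Differences ran from -2.22 for S100A4 to -0.72 for DCN, with a median of -1.59. DCN had a PA6 mean of 15.84, near the level of GAS6, so its difference may be understated as well. The summed intensity of the 12 markers, DCN included, ranged between 72905 and 99131 for ES/PA6 arrays and between 185864 and 201799 for PA6 arrays. CSF1 lay beyond the largest fibroblast deficit and THY1 above the smallest, and the part of the stromal share in these differences was not tested. Under FGF2, 5 of the 7 niche factors were called (37.2% of all genes, 18.7% higher and 18.4% lower) and under BMP4 6 of the 7 (38.1%, 19.0% higher and 19.1% lower), with MDK higher and the rest lower each time.

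**Figure D2:**
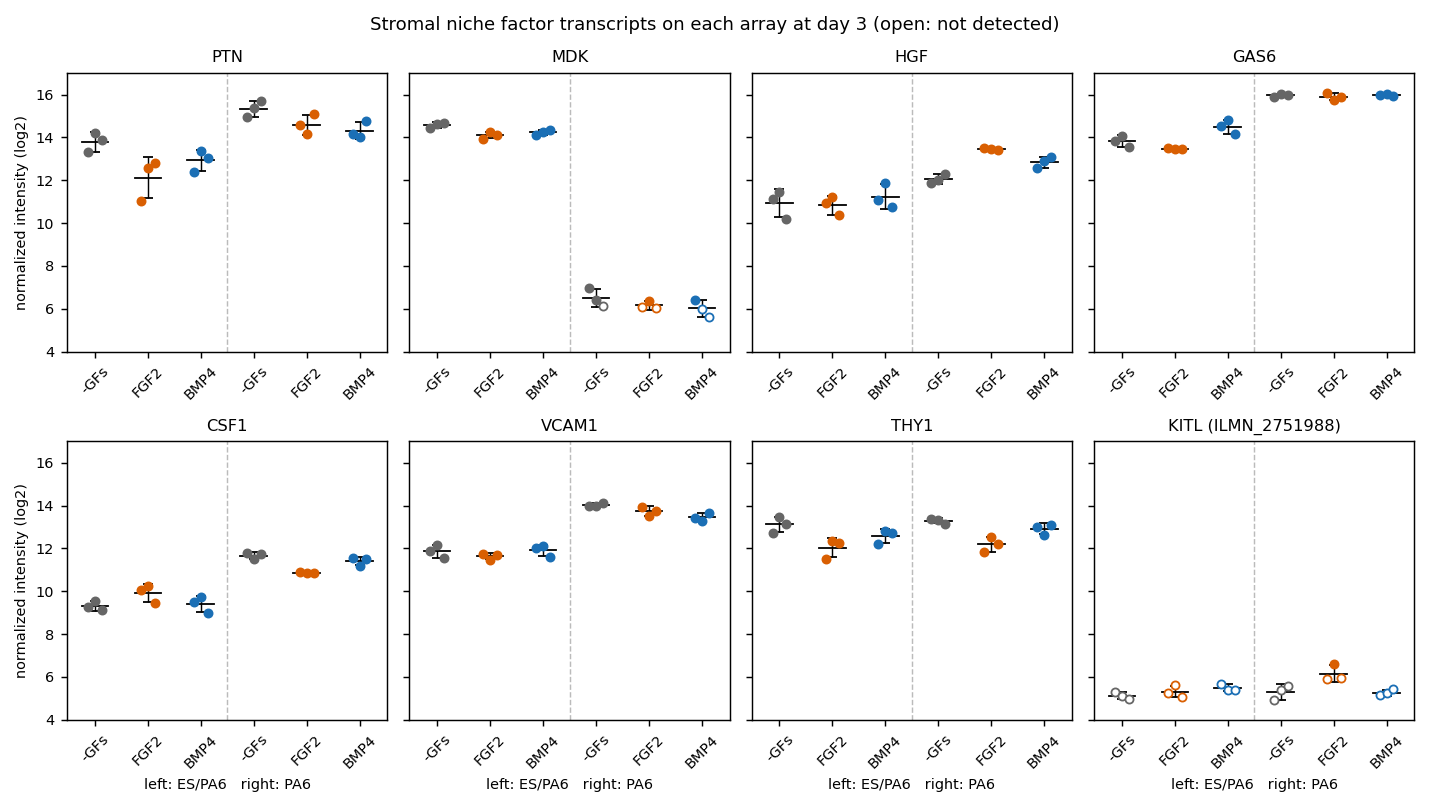
Normalized log2 intensity (y axis) of the 8 niche factors on each of the 18 arrays, with 3 replicate arrays per group as points, their mean as a horizontal line and their SD as an error bar. Open points are arrays on which the probe was not detected: MDK is near background in PA6 mono-cultures, and the KITL probe ILMN_2751988, left out of the tests, is detected on 1 array.

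KITL was not detectable at the sensitivity of these arrays. Its 3 probes gave raw intensities of 76.8 to 165, while the median probe of an array read 115.4 to 158.7, and the lowest detection p was 0.0203, on PA6 FGF2 replicate 2. A fit without the filter gave KITL a log2 fold change of 0.86 under FGF2 in the mono-cultures (adjusted p = 0.0143), below the fold change threshold and between groups in which 1 of 6 arrays was detected, so no change was called. Its receptor gene KIT, by contrast, was well measured in the co-cultures, at 10.18 ± 0.52 without growth factors, 12.18 ± 0.22 with FGF2 and 10.82 ± 0.58 with BMP4 (SD, n = 3). KIT was not detected on any PA6 array, so that its level in the -GFs co-cultures was at least 14.8-fold higher than in PA6 cells.

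FGF2 lowered PTN and THY1 in the co-cultures, and these 2 of the 7 tested factors were the only ones called there (3.34% of all genes were called, 1.20% lower). PTN read 11.01, 12.56 and 12.82 with FGF2, all below the -GFs arrays, and was 3.17-fold lower (-1.67 ± 0.411, adjusted p = 0.0220). The fall was -2.29, -1.64 and -1.06 in replicates 1, 2 and 3. THY1 read 11.52, 12.34 and 12.27 with FGF2, again without overlap, and was 2.11-fold lower (-1.08 ± 0.250, adjusted p = 0.0156). Its differences within replicates were -1.21, -1.13 and -0.88.

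Both calls depended on single arrays in the fits without a replicate block, the only fits from which arrays were left out. With the replicate number as a block and all arrays kept, both genes were called. Without -GFs replicate 2, PTN was -1.46 and THY1 -0.90, and without FGF2 replicate 1 they were -1.11 and -0.81. Neither gene was then called, PTN by its adjusted p (0.000288 to 0.108 over 17 alternatives) and THY1 by its fold change, and THY1 was also not called with median scaling (-0.98). The fibroblast markers gave no call in this comparison (0 of 12 by limma against 3.34% of all genes, 3 at an unadjusted p under 0.05, median -0.38). Their log2 fold changes ran from -1.41 to 0.44, and their summed intensity was 72905 to 99131 without and 72805 to 86242 with FGF2. The part of the stromal share in the PTN and THY1 changes was not tested.

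The other niche factors were not called under FGF2 in the co-cultures. MDK read 13.95, 14.26 and 14.14 with FGF2, all below the -GFs arrays, with a log2 fold change of -0.47 and an adjusted p of 0.244. CSF1 read 10.07, 10.25 and 9.44, with a log2 fold change of 0.61 (0.16 to 1.05) and an adjusted p of 0.109. GAS6 had -0.35, VCAM1 -0.24 and HGF -0.10, and the interval of the HGF change ran from -0.76 to 0.57.

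In the mono-cultures FGF2 raised HGF and lowered THY1, again 2 of the 7 factors (5.27% of all genes were called, 2.71% higher and 2.56% lower). HGF read 13.52, 13.48 and 13.43 with FGF2 against 11.88, 12.00 and 12.31 without, a 2.66-fold higher level (1.41 ± 0.314, adjusted p = 0.00573). It rose by 1.64, 1.48 and 1.12 within replicates. The remaining HGF probes, ILMN_2729117 and ILMN_2580097, gave 2.07 and 1.13.

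THY1 read 11.81, 12.52 and 12.23 with FGF2 against 13.39, 13.34 and 13.15, a 2.15-fold lower level (-1.11 ± 0.250, adjusted p = 0.00641). Without FGF2 replicate 1 the difference was -0.92 and no longer past the fold change threshold. The THY1 change was much the same size in both culture types: the difference between its FGF2 effects was 0.03 on the log2 scale, with an interval of -0.72 to 0.78.

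CSF1 fell short of a call in the mono-cultures. It read 10.88, 10.87 and 10.85 with FGF2, all below the 11.49 to 11.77 of the -GFs arrays, at -0.80 ± 0.209 and an adjusted p of 0.0162, under the fold change threshold. PTN had -0.74 (-1.61 to 0.13), VCAM1 -0.29 and GAS6 -0.07. MDK, at the detection limit, has no reading of direction in PA6 cells.

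**Figure D3:**
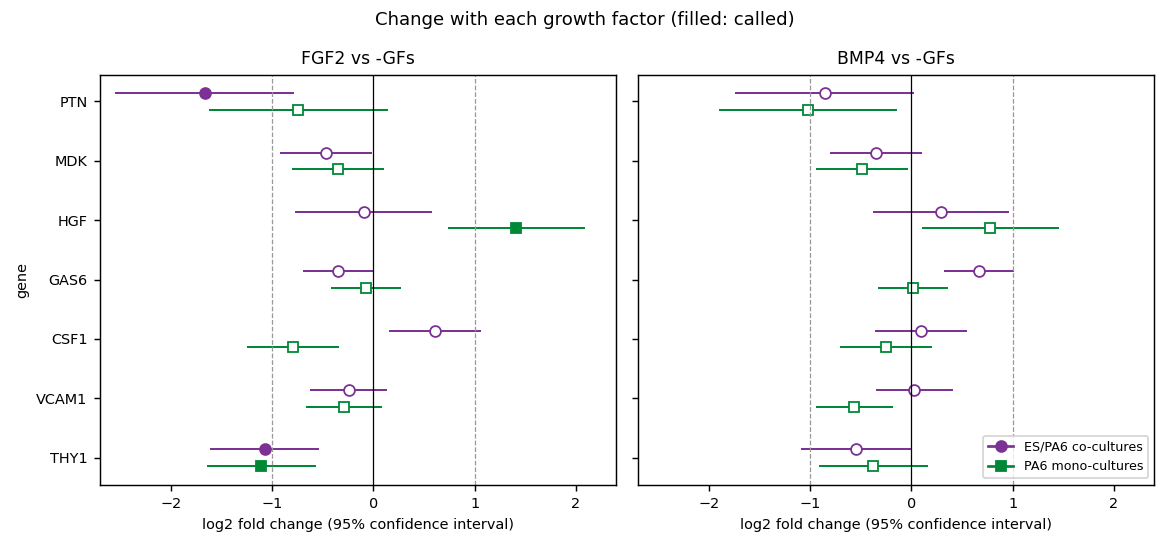
Log2 fold change against -GFs medium with its 95% confidence interval (x axis) for 7 niche factors (y axis) with FGF2, left, and BMP4, right, in ES/PA6 co-cultures (circles) and PA6 mono-cultures (squares), 3 arrays per group. Filled symbols are called. PTN and THY1 are lower with FGF2 in the co-cultures, THY1 is lower and HGF higher with FGF2 in the mono-cultures, and no factor is called with BMP4. Dashed lines mark the fold change threshold.

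The response to FGF2 differed between the culture types for HGF and CSF1, as tested by the interaction of growth factor and culture type, in which 7.39% of all genes were called, 3.99% with a higher and 3.40% with a lower effect in the co-cultures. HGF rose by 1.41 in the mono-cultures and had -0.10 in the co-cultures, a difference of -1.51 ± 0.444 (adjusted p = 0.0411). CSF1 had -0.80 in the mono-cultures and 0.61 in the co-cultures, a difference of 1.41 ± 0.296 (adjusted p = 0.00640). All 3 CSF1 replicates had a positive change with FGF2 in the co-cultures (0.83, 0.68 and 0.32) and a negative change in the mono-cultures (-0.89, -0.62 and -0.89).

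Without co-culture -GFs replicate 2 the HGF difference was -1.25 and was not called, its adjusted p running from 0.000485 to 0.102 over 22 alternatives. CSF1 was called under each of its 22 alternatives, with adjusted p from 0.000159 to 0.0193. The other 5 factors were not called. PTN had -0.92, with an interval of -2.16 to 0.31 that does not separate its 2 responses.

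**Figure D4:**
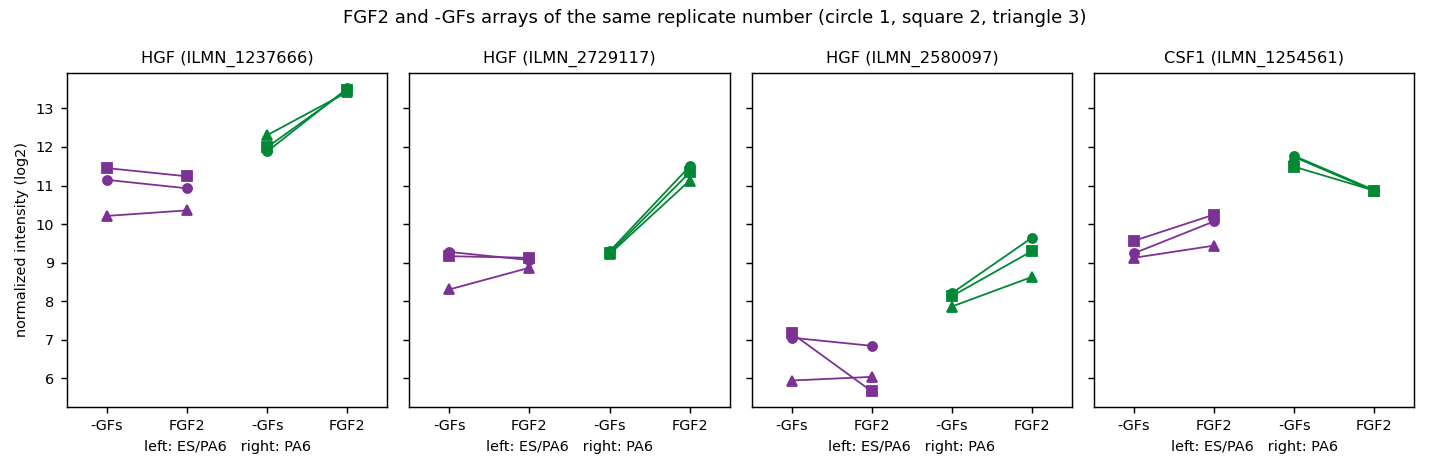
Normalized log2 intensity (y axis) of the 3 HGF probes and the CSF1 probe in -GFs and FGF2 medium, with lines joining arrays of the same replicate number, in ES/PA6 co-cultures (purple) and PA6 mono-cultures (green). All 3 HGF probes are higher with FGF2 in every mono-culture replicate, and CSF1 is higher with FGF2 in the 3 co-culture replicates and lower in the 3 mono-culture replicates.

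The promoter windows of these genes are shown because theirs was the response to FGF2 that depended on the culture type. The RefSeq promoter table used here, on GRCm38.p6, held windows of 300 bases, from 250 before to 50 after a start site, for 5 of the 8 factors (6 windows). Hgf has more than 1 start site in it. Each is printed 5′ to 3′ on the strand of its gene:
Hgf, chr5:16553245-16553544, strand +: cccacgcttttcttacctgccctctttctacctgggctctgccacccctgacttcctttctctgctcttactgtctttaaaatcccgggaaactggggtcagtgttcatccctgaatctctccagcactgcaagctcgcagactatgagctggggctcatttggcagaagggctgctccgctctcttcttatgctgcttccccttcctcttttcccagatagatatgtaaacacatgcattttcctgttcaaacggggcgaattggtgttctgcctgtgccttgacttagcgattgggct
Hgf, chr5:16553651-16553950, strand +: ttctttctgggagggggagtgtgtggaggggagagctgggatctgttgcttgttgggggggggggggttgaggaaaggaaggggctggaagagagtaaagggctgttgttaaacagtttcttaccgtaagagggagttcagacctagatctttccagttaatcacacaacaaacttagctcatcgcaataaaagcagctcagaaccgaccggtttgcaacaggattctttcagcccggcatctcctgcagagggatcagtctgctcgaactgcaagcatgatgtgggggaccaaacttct
Csf1, chr3:107760420-107760719, strand -: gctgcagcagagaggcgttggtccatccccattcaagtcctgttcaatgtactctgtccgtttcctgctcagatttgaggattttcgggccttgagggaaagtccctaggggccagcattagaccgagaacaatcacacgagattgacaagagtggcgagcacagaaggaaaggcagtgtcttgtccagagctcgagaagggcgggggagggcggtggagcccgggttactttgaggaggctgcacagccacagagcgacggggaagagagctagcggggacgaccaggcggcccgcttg
The windows were searched on both strands for the AP-1 element TGANTCA, the BMP-SMAD palindrome GGCGCC and the TATA element TATAAA, which do not overlap in their letters and occur in 7.81%, 11.9% and 13.6% of 32851 promoter windows. None of the 3 printed windows held any of them, so no base is in capitals. The Csf1 window had a GC content of 58.7% with 16 CG dinucleotides, and the Hgf windows had 51.3% each with 7 and 6. Of the other factors with a window, Kitl alone had a match, TATAAA at position -25 from the start site.

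BMP4 gave no call among the 7 factors in the co-cultures, where 0.760% of all genes were called, and 2 of the 7 had an unadjusted p under 0.05. GAS6 came nearest. It read 14.52, 14.80 and 14.15 with BMP4, all above the 13.54 to 14.08 of the -GFs arrays, a 1.59-fold higher level (0.66 ± 0.158) at an adjusted p of 0.0649 but below the fold change threshold. The GAS6 difference was 0.66, 0.72 and 0.61 in the 3 replicates. PTN had -0.86 (-1.73 to 0.01) and THY1 -0.55 (-1.08 to -0.02), with adjusted p of 0.472 and 0.436. CSF1, VCAM1 and HGF had 0.10, 0.03 and 0.29, with groups that overlapped. MDK had -0.35 (-0.80 to 0.09) at an adjusted p of 0.619, with its BMP4 arrays all below the -GFs arrays.

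GAS6 was the factor in which FGF2 and BMP4 differed in the co-cultures, the only 1 of the 7 called (2.85% of all genes were called, 1.03% lower with FGF2). It read 13.50, 13.47 and 13.47 with FGF2, and the level was 2.02-fold lower than with BMP4 (-1.01 ± 0.158, adjusted p = 0.00122). This lay just past the fold change threshold and fell below it with median scaling (-0.83) and without BMP4 replicate 1 (-0.9995) or 2 (-0.86). Adipocyte markers also differed: of the 5 tested, 4 were lower with FGF2 than with BMP4, and their summed intensity was 411 to 864 with FGF2, 649 to 3450 without growth factors and 4601 to 26399 with BMP4. In the mono-cultures 5 of the 5 were lower with FGF2 than with BMP4 (median -6.37, 5.82% of all genes called), where GAS6 had -0.09. Against -GFs medium 3 of the 5 were lower with FGF2 there (median -4.65, 5.27% of all genes called), where GAS6 had -0.07. The mono-culture intensities of GAS6 lay near the highest value of the table, so its differences there may be understated. All 5 adipocyte markers were detected on at least 1 array per co-culture group except CIDEC under FGF2, and their part in the GAS6 difference was not tested.

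In the mono-cultures GAS6 showed no such change, with 15.99, 16.02 and 15.95 under BMP4 and a log2 fold change of 0.01 (-0.32 to 0.35). Its raw intensities there were 48231 to 70899, close to the highest value of the whole table, 72879, which leaves little room for a rise to be seen. The test of the difference between its BMP4 effects gave 0.65 (0.18 to 1.12) at an adjusted p of 0.288, and no factor was called in that interaction (0.559% of all genes), with 2 of 7 at an unadjusted p under 0.05.

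BMP4 gave no call among the factors in the mono-cultures either, where 1.41% of all genes were called and 4 of the 7 factors had an unadjusted p under 0.05. These were PTN, HGF, VCAM1 and MDK, of which MDK lay at the detection limit, with 1 of 3 BMP4 arrays and 2 of 3 -GFs arrays detected. PTN read 14.14, 14.04 and 14.76 with BMP4, all below the -GFs arrays, at -1.02 ± 0.411 (adjusted p = 0.276). Its within-replicate differences were -0.80, -1.33 and -0.94, and in the fit blocked on the replicate number the same -1.02 was called at an adjusted p of 0.0157, in a range of 0.0157 to 0.579 over 17 alternatives. HGF read 12.57, 12.88 and 13.08, above the -GFs arrays in every replicate, with 0.78 (0.11 to 1.44) and an adjusted p of 0.279.

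VCAM1 read 13.44, 13.30 and 13.66 with BMP4, below all -GFs arrays, with -0.57 (-0.93 to -0.20) and an adjusted p of 0.115. Its dimmer probes ILMN_1232768 and ILMN_2552295 gave -1.15 and -0.82. FGF2 against BMP4 in the mono-cultures gave no call among the factors (5.82% of all genes; 2 of 7 at an unadjusted p under 0.05), with THY1 at -0.73 and CSF1 at -0.54 below the fold change threshold (adjusted p of 0.0616 and 0.0986).

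The receptors of these factors were read from a list of 21 receptors and binding partners, 18 of them tested. In -GFs medium 5 were higher in the co-cultures, 6 were lower and 7 did not pass, against 19.4% of all genes higher and 19.5% lower. KIT, the MDK and PTN receptors ALK (at least 1.29-fold) and NCL, TYRO3 and the integrin subunit ITGB7 (at least 1.50-fold) were higher, and AXL, MERTK, MET (at least 1.47-fold), LRP1, SDC1 and ITGAV were lower. The GAS6 receptors therefore divided between the culture types: AXL was 12.20 in the co-cultures and 14.08 in PA6 cells, and TYRO3 was 7.70 and 6.69. The CSF1 receptor gene CSF1R was dim in both, at 6.26 and 6.86, and ITGA4, which forms a VCAM1 receptor with ITGB1 or ITGB7, was detected on 1 and 0 of 3 arrays.

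KIT was the only receptor called with FGF2 in the co-cultures (3.34% of all genes were called). It was higher by 1.99 ± 0.257 (adjusted p = 0.000181), while 17 did not pass, the median was -0.18 and 9 of the 18 had an unadjusted p under 0.05. In the mono-cultures 3 were called, against 5.27% of all genes. SDC4, a syndecan that binds both cytokines, was higher by 1.27, MERTK fell by 1.84, and MET was at least 1.13-fold lower, since it was detected on none of the FGF2 arrays. MET was thus below detection in the PA6 cultures in which HGF was highest, those with FGF2. With BMP4, where the HGF mean also lay above that of -GFs medium (12.84 against 12.06), MET was at its highest. It read 7.12 there, detected on 3 of 3 arrays, and 6.44 without growth factors, detected on 2 of 3. With BMP4 limma called 0 of the 18 in either culture type (3 of them had an unadjusted p under 0.05 with ES cells present and 4 in PA6 cells alone), with medians of 0.04 in both.

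The activation of HGF requires cleavage, and of a list of 8 proteases and inhibitors 6 were tested. PLAT, tissue plasminogen activator, was the only 1 called with FGF2 in the mono-cultures, against 5.27% of all genes. It was higher there by 1.45 ± 0.223 (adjusted p = 0.000288). In -GFs medium ST14, the protease matriptase, was at least 4.33-fold higher in the co-cultures, and its inhibitor gene SPINT1 was 27.1-fold higher there, with 11.97 against 7.21. PLAU, urokinase, was 3.58-fold lower there, and the inhibitor gene SPINT2 was at least 1.05-fold higher. PROS1, protein S, the relative of GAS6 that also binds its receptors, was higher with FGF2 in the mono-cultures by 1.50 ± 0.139 (adjusted p = 2.16e-06). GAS6 had -0.07 there, but its PA6 intensities lay near the highest value of the table, which leaves little room for a rise to be seen. CSF3, another colony-stimulating factor, was at least 5.06-fold higher with FGF2 in the mono-cultures. MMP9, a protease that sheds KITL, was higher with FGF2 in both culture types, by 1.82 and 2.01. In the mono-cultures these were 3 of the 5 tested genes of their list of 8, against 5.27% of all genes called and 2.71% called higher. That list was chosen with earlier results of these data known, so the count cannot test for an excess.

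Of 23 further stromal niche factors, 18 were tested. In -GFs medium 4 were higher and 8 lower in the co-cultures, against 19.4% and 19.5% of all genes. VEGFC, a ligand of lymphatic endothelial receptors, was at least 10.1-fold higher, ICAM1 at least 7.98-fold, NES at least 5.77-fold and NGFR at least 3.39-fold, each detected on none of the PA6 arrays in that medium. Lower were CXCL12, the chemokine that retains haematopoietic stem cells (14.28 against 15.28), DLK1, FN1, ANGPT1, JAG1, WNT5A, CDH11 (-1.87) and FLT3L (at least 1.26-fold). FGF2 in the mono-cultures raised ANGPT1, the ligand of the endothelial receptor TEK, by 1.55 ± 0.328 and IL6 by at least 3.65-fold. JAG1, a Notch ligand, fell there by 1.35 ± 0.281 and 15 did not pass, against 5.27% of all genes called. ICAM1 was the 1 called with FGF2 in the co-cultures (1.33), against 3.34% of all genes. WNT5A was the 1 called with BMP4 in the mono-cultures (1.32 ± 0.200), against 1.41% of all genes. With BMP4 in the co-cultures limma called 0 of the 18, against 0.760% of all genes, and 3 had an unadjusted p under 0.05.

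The genes whose levels most resembled the called factors were taken over the 9 mono-culture arrays, which share the FGF2 and -GFs groups that drive the pattern. For HGF these were GPRC5B, LOC100045780 and PHTF1, with Pearson correlations of 0.974, 0.972 and 0.971 over 9 arrays, and their own FGF2 changes were smaller, from 0.63 to 0.70. For THY1 they were LOC380833, ABHD4 and 1110003O08RIK, with 0.980, 0.961 and 0.959 and FGF2 changes of -1.01, -0.63 and -0.52.

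Over the 6 groups, each factor kept its own order of levels. PTN was highest in PA6 cells without growth factors (mean 15.34) and lowest in the co-cultures with FGF2 (12.13). HGF was highest in PA6 cells with FGF2 (13.48), followed by BMP4 (12.84) and -GFs (12.06), of which the first and second were not called apart (0.63, adjusted p = 0.210) although their arrays did not overlap. The HGF probes ILMN_2729117 and ILMN_2580097 gave 1.51 and 0.32 for the same difference. Its 3 co-culture groups, from 10.84 to 11.23, did not separate. CSF1 ran from 9.31 in the co-cultures to 11.66 in PA6 cells, both without growth factors. THY1 was lowest with FGF2 in each culture type, at 12.04 and 12.19.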

How the data were processed

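The data were 18 Illumina MouseWG-6 arrays. The authors hybridised biotinylated cRNA and deposited non-normalized intensity values (55.5 to 72879 over 45281 probes) with detection p-values; GenomeStudio 2011.01 is named in the submitters' processing notes. A further 5 stray lines at the end of the table were left out. Each deposited detection p-value compares a probe with the negative controls of its array. Between 17125 and 20412 probes were detected per array. The number of arrays limits the precision.

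Intensities were background-corrected and quantile normalized with neqc (limma 3.58.1, R 4.3.3; offset 16, which understates fold changes of dim genes). The study's methods name a cubic spline instead. Probes detected at p under 0.05 on at least 3 of 18 arrays were kept (22987), and the probe with the largest mean stood for its gene (16446 genes). A single limma fit of 6 group means gave all comparisons, with Benjamini-Hochberg adjustment over all genes, and genes were called by the limits the study set (adjusted p 0.1, absolute log2 fold change 1). A permutation of 3 arrays against 3 cannot give a p below 0.1. "At least" folds set a level for a group detected on no array. On each of its arrays this was the larger of the lowest detected value and the gene's own value, averaged over the arrays.

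The members and gene lists were chosen with earlier results of these data known. All members are named, and list genes only when called or needed for their role. The labels describe each biological replicate as a set of wells, 1 per condition. Deviations from group means correlated at 0.325 to 0.521 in the 9 same-numbered pairs of co-culture arrays, and at 0.0628 to 0.164 in the 9 pairs of mono-culture arrays, so the replicate number was tried as a block. Other alternatives were scaling, filters, probe choice, array weights, thresholds and leaving out each array.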

Additional observations from a re-analysis of the deposited data

Results flagged for a closer look

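The change with FGF2 differed between the culture types, ES/PA6 and PA6 alone, for 2 of the 7 tested niche factors, by the limma test of the difference itself. For CSF1 the change in the co-cultures minus that in the mono-cultures was 1.41 on the log2 scale (adjusted p = 0.00640), from 0.61 and -0.80. For HGF it was -1.51 (adjusted p = 0.0411), from -0.10 and 1.41.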

How the results depend on the processing

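The number of array replicates, 3 per group, limits these results, and the cause of the changes below was not tested. With median scaling 1 factor (PTN) was called for FGF2 in the co-cultures and 0 for FGF2 against BMP4 there. Without the fold change threshold CSF1 was also called with FGF2 in the mono-cultures (-0.80) and between culture types under FGF2 (-0.95), 1 factor (GAS6) was called in the co-cultures with BMP4 and 2 (CSF1 and THY1) for FGF2 against BMP4 in the mono-cultures. With the replicate number as a block 1 (PTN, -1.02) was called for BMP4 in the mono-cultures, and the block changed no other call. Leaving out 1 array at a time gave 0 to 2 calls for FGF2 in the co-cultures, 1 to 2 for FGF2 in the mono-cultures, 0 to 1 for FGF2 against BMP4 in the co-cultures and 1 to 2 for the interaction with FGF2.

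The sign turned only in values near 0 that were not called. For FGF2 in the co-cultures VCAM1 was 0.17 with the mean of kept probes, and HGF was 0.00886 with median scaling and -0.46 to 0.16 without single arrays. For BMP4 in the co-cultures VCAM1 was -0.00201 with median scaling and -0.13 to 0.18 without single arrays, CSF1 ran from -0.0685 to 0.30 and HGF from -0.0702 to 0.55. In the mono-cultures GAS6 ran from -0.16 to 0.0129 with FGF2 and from -0.0211 to 0.0384 with BMP4, with -0.17 under median scaling. For THY1 the difference between culture types ran from -0.35 to 0.0165 without growth factors and from -0.33 to 0.12 with FGF2.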
